A study of Mus musculus with 40 samples.

Results

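The 10 genes described here belong to the glucocorticoid response and were followed through the expression tables of mouse extensor digitorum longus (EDL) muscle, a fast muscle of the lower leg. They were chosen by name: the receptor gene Nr3c1 and 9 genes known as its targets, Fkbp5, Tsc22d3, Sgk1, Zbtb16, Klf15, Klf9, Cebpd, Pik3r1 and Inmt. All 10 were among the 22844 genes of the tables, and 9 passed the filter on low counts, Cebpd being the exception. The libraries came from 8 groups of 5 mice, with 1 library per mouse and 40 libraries in all. CON mice were Tsc1 fl/fl littermates without Cre recombinase, of the strain Tsc1tm1Djk/J. TSCmKO mice carried the same floxed alleles and lacked Tsc1 in skeletal muscle fibers, so that mTORC1, the growth-promoting kinase complex that Tsc1 restrains, stayed active there. The promoter that drove Cre is not given in the sources used here, and other cell types of the muscle kept Tsc1. Mice were 3 or 9 months old (3m, 9m) and were injected intraperitoneally for 3 days with vehicle or with rapamycin (RM), an inhibitor of mTORC1. The labels give 4 mg per kg of rapamycin and the study text a higher dose, so that the dose is uncertain.

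Glucocorticoids are adrenal steroid hormones that enter cells and bind the glucocorticoid receptor, the protein encoded by Nr3c1. The receptor is held in the cytoplasm by a chaperone complex with Hsp90 and FK506-binding proteins, and once bound by hormone it moves to the nucleus and raises or lowers transcription of its target genes. In skeletal muscle this response favours protein breakdown and the release of amino acids, and the hormone itself rises and falls with the time of day. The sources used here give neither the time of dissection nor the sex of the mice, and no hormone level was used.

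The promoters of Sgk1, Tsc22d3 and Klf15 are shown because these were the members that were lower under rapamycin in TSCmKO muscle at both ages. The set of promoter windows used here, from RefSeq start sites of GRCm38.p6, held 15 windows for 7 of the 10 members. Each window ran from 250 bases before to 50 bases after a start. Each line gives the 250 bases before a start, 5′ to 3′ on the strand of the gene, which are chr10:21993640-21993889 (plus strand) for Sgk1, chrX:140600523-140600772 (minus strand) for Tsc22d3 and chr6:90462326-90462575 (plus strand) for Klf15. Sgk1 had 6 windows and Tsc22d3 3, and the one with the most receptor hexamers was picked for each. Capitals mark AGAACA or its reverse complement TGTTCT, the hexamer that the receptor recognises, and CACGTG, the E-box bound by clock and other basic helix-loop-helix factors.
Sgk1: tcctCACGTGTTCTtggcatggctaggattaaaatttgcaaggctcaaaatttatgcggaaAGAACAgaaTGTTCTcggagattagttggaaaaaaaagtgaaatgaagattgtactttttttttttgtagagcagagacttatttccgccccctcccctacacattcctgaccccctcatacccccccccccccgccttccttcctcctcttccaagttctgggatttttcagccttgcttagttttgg
Tsc22d3: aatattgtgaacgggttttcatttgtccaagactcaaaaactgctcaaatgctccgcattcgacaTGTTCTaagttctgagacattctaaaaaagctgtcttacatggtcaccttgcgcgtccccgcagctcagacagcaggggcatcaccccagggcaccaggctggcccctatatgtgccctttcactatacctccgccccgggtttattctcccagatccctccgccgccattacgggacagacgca
Klf15: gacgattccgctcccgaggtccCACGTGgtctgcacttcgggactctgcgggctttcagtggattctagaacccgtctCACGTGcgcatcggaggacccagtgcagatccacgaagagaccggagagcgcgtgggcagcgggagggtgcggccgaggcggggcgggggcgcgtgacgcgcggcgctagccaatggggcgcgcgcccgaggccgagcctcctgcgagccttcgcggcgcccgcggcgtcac
The Sgk1 window shown held the hexamer at -242, -189 and -180 relative to the start, and the first of these overlapped a CACGTG at -246. The hexamers at -189 and -180 faced each other across 3 bases, which is the palindromic form of the receptor's element. This arrangement was found in 3 of all 32851 windows (0.00913%), while a hexamer on either strand was found in 19.0% of them. Among the 7 members with a window only Sgk1 and Tsc22d3 had windows with the hexamer, in 4 of the 15 windows (3 of 6 for Sgk1 and 1 of 3 for Tsc22d3). CACGTG was found in 7.15% of all windows and in 1 window each of Klf15, Sgk1 and Fkbp5. The Klf15 window held it at -228, -172 and -3, and the last of these crossed the start site, so that it is not shown in full.

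Libraries held 8883870 to 35224669 estimated counts. Tsc1 had log2 fold changes of -1.99 to -1.55 in the 4 comparisons of TSCmKO with CON, all past the threshold, and the ranges of the groups did not overlap in any of them. Muscle fiber markers such as Acta1 and Ckm were abundant in every group, with a summed level of 107000 to 219476 CPM (counts scaled to the TMM-adjusted library total) over 8 genes. This sum was 107000 to 124242 CPM in 9mTSCmKO and 167100 to 183183 CPM in 9mCON. Summed markers of other cell types were lower, at 129 to 2217 CPM for fibroblasts, 650 to 4593 CPM for adipocytes, 33.0 to 816 CPM for tendon, 174 to 491 CPM for endothelium, 11.7 to 146 CPM for macrophages and 203 to 9036 CPM for erythroid cells. Replicates 1 and 3 of 9mTSCmKO stood apart from the other mice of their group, with mean correlations of 0.937 and 0.961 against 0.965 to 0.988 for the other libraries of the series, so that values are also given without them where a result changes. The labelled mean insert size ran from 175 to 239 nt in the younger and from 223 to 308 nt in the older mice, so that age and library preparation cannot be told apart. No size was given for 9mTSCmKO+RM replicate 5, and fits and relations with insert size left that library out.

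Values per gene are sums over its transcripts. On GRCm38 the genes described most below lie at chr10:21882184-21999903 (Sgk1), chrX:140539528-140600659 (Tsc22d3), chr6:90462576-90475238 (Klf15), chr17:28399094-28517527 (Fkbp5), chr19:23141226-23168134 (Klf9) and chr6:55170626-55175043 (Inmt). Of the 31-base words in a member's transcripts, 0 to 2.03% also occurred in other genes for the 9 tested members, so that few reads could be shared.

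The members differed widely in level. On the TPM scale, which corrects for transcript length, the medians over the 40 libraries were 341 for Tsc22d3, 189 for Sgk1, 130 for Klf9, 70.6 for Zbtb16, 54.6 for Nr3c1, 32.7 for Klf15, 29.6 for Fkbp5, 21.8 for Pik3r1 and 13.0 for Inmt. Tsc22d3 encodes GILZ, a leucine zipper protein that mediates anti-inflammatory effects of the hormone, and Sgk1 encodes a kinase that acts beside Akt on ion transport and FoxO factors. Of the 9 tested members Fkbp5 varied the most among mice of a group, with a median coefficient of variation of 37.9% of the CPM, and Klf9 the least, with 12.6%. When the 8 groups were ordered by their mean CPM, the ranges of all 7 pairs of neighbours overlapped for each of the other 9 members, Cebpd included, but not for Inmt. For Inmt 6 of 7 overlapped, and the highest group, 3mCON+RM, lay clear of the next, 3mTSCmKO+RM.

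**Figure D1:**
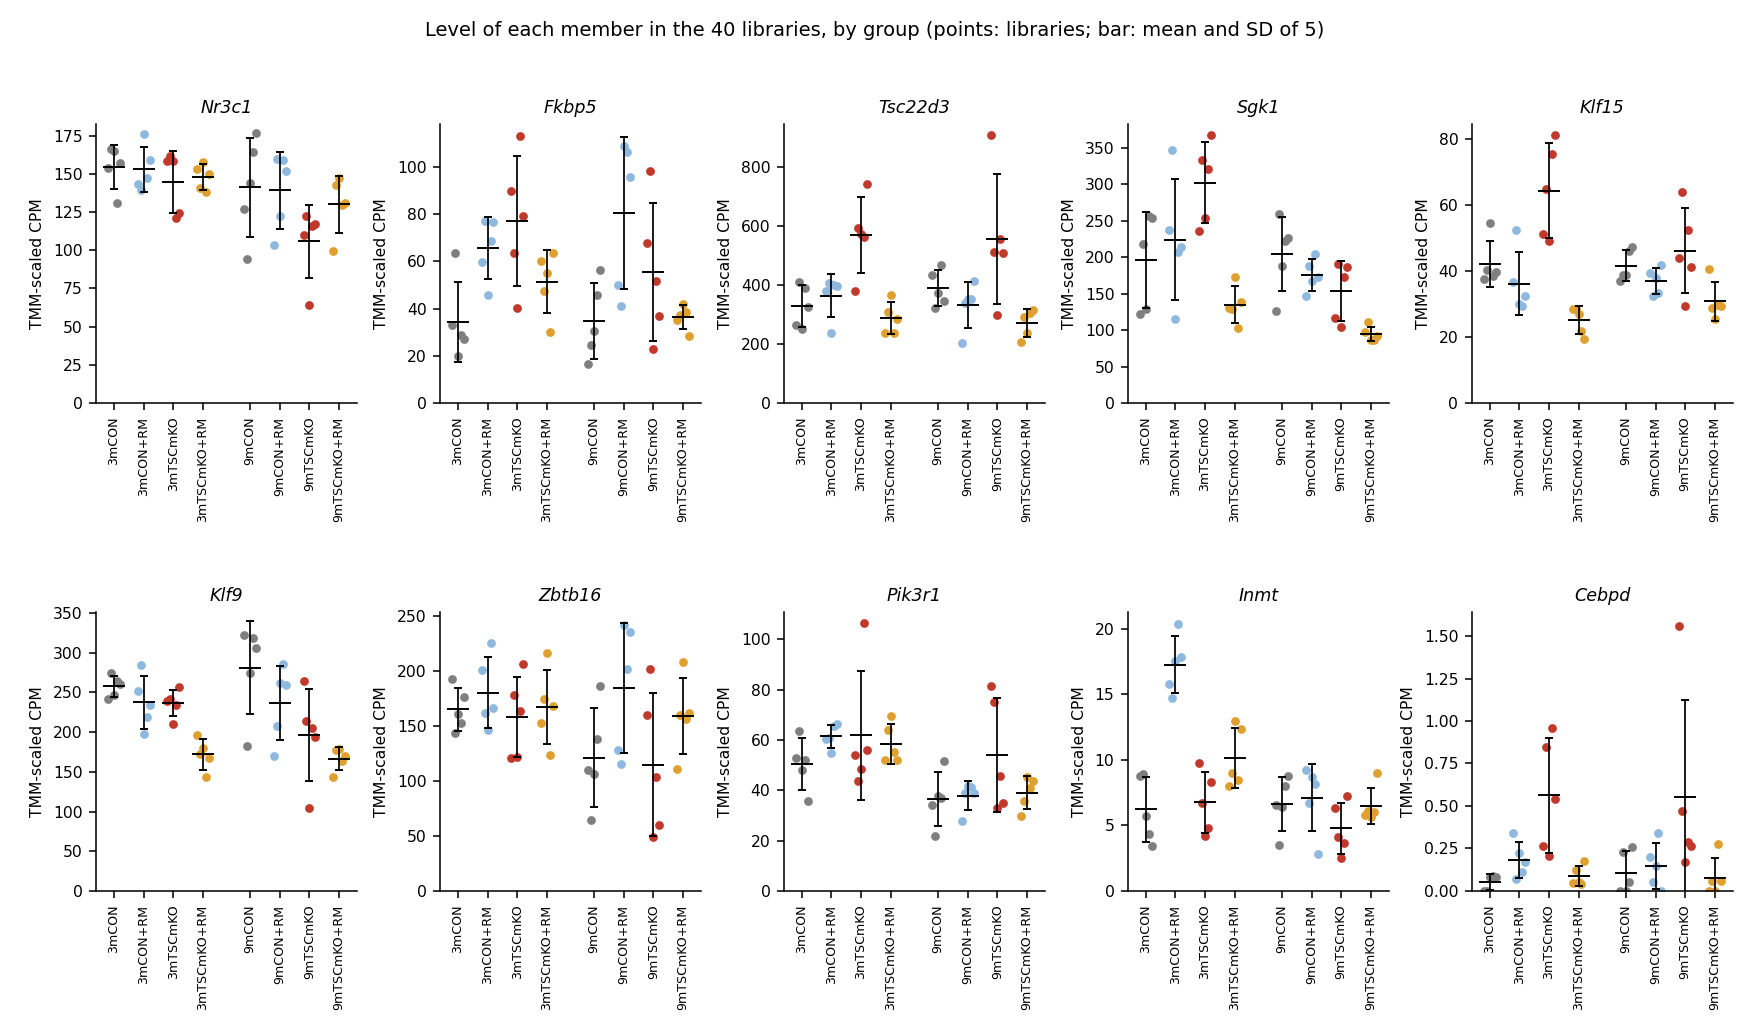
Level of each of the 10 genes in TMM-scaled CPM on a linear axis from 0, with 1 point per library and the mean and SD of 5 libraries as bars; grey is CON, light blue CON+RM, red TSCmKO and yellow TSCmKO+RM. The 5 points of 3mTSCmKO lie above the 5 of 3mTSCmKO+RM for Tsc22d3, Sgk1, Klf15, Klf9 and Cebpd. The Inmt points of 3mCON+RM (14.7 to 20.4) lie above those of every other group.

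At 3 months, loss of Tsc1 went with higher levels of 4 members and lower levels of none. Fkbp5, Tsc22d3, Sgk1 and Klf15 rose, and the other 5 tested members had log2 fold changes between -0.12 and 0.30. Tsc22d3 stood at 266, 411, 250, 391 and 327 CPM in the 5 3mCON mice and at 379, 596, 575, 566 and 743 CPM in the 5 3mTSCmKO mice. In 3mTSCmKO, 4 mice lay above all CON mice and 1 within their range. Tsc22d3 had a log2 fold change, TSCmKO against CON, of 0.80 ± 0.21 (SE; adjusted p = 0.00485, edgeR).

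Fkbp5, the FK506-binding co-chaperone that dampens the receptor in a feedback loop, ran from 33.1, 63.5, 19.7, 29 and 27.3 CPM in 3mCON to 89.9, 63.6, 40.2, 113 and 79.2 CPM in 3mTSCmKO. All but 1 of the TSCmKO mice exceeded the highest CON mouse, in 1 case by a narrow margin, and the log2 fold change was 1.17 ± 0.34 (adjusted p = 0.0130). Without 3mTSCmKO replicate 4, the mouse with the highest Fkbp5, it was 0.98 (adjusted p = 0.0502). Klf15, a Krüppel-like factor that drives amino acid breakdown in muscle, stood at 37.7, 40.2, 54.4, 38.7 and 39.8 CPM in 3mCON and at 51.3, 64.8, 49.0, 75.4 and 81.4 CPM in 3mTSCmKO. The ranges met only because of 3mCON replicate 3, at 54.4 CPM. For Klf15 the estimate was 0.61 ± 0.17 on that scale (adjusted p = 0.00725).

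Sgk1 stood at 122, 218, 129, 257 and 254 CPM in 3mCON and at 236, 333, 253, 320 and 368 CPM in 3mTSCmKO, where 3 mice lay above all CON mice. Its log2 fold change was 0.62 ± 0.22 (adjusted p = 0.0391). The Sgk1 call was lost without any one of 3mCON replicates 1 and 3 and 3mTSCmKO replicates 2, 4 and 5 (log2 fold change 0.49 to 0.59, adjusted p = 0.0746 to 0.136), without the filter on low counts (adjusted p = 0.0674), with insert size as a term (adjusted p = 0.0826) and in a fit of only the 10 libraries compared (adjusted p = 0.0535). Of all 13543 genes tested, 19.8% were called in this comparison (11.4% higher and 8.32% lower), beside 4 of the 9 members, all higher. The median log2 fold change was 0.30 over the members and -0.02 over all genes. The adipocyte marker sum was 1788 to 4593 CPM in 3mTSCmKO and 663 to 761 CPM in the 3mCON mice other than replicate 3, which had 3065 CPM. Most of this sum came from Car3, a carbonic anhydrase that muscle fibers also express (2432 and 860 CPM, group means), and the median log2 fold change over the 8 markers was 0.03. Of the markers, 1 of 8 for adipocytes was called higher (Car3, 1.5), and 1 of 8 for fibers and 1 of 7 for tendon lower. Their part in the member differences was not tested.

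At 9 months the pattern was mixed: Tsc22d3 and Pik3r1 rose and Nr3c1 and Klf9 fell in TSCmKO muscle. Klf9, a Krüppel-like factor and direct target of the receptor, stood at 323, 182, 275, 319 and 306 CPM in 9mCON and at 264, 214, 105, 206 and 194 CPM in 9mTSCmKO. All 5 TSCmKO mice lay below every CON mouse other than replicate 2, and the log2 fold change was -0.52 ± 0.16 (adjusted p = 0.00894, edgeR). It was still called without any single library (log2 fold change -0.64 to -0.35) and without both 9mTSCmKO replicates 1 and 3 (-0.43, adjusted p = 0.0242), but not in a fit of only the 10 libraries compared (adjusted p = 0.138) or with limma on TPM (adjusted p = 0.0668).

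Nr3c1, the receptor gene itself, stood at 127, 94.3, 144, 165 and 177 CPM in 9mCON and at 110, 122, 63.9, 116 and 117 CPM in 9mTSCmKO. Replicate 3 of 9mTSCmKO was the lowest of the 40 libraries for Nr3c1, and the other 4 mice lay within the CON range. The log2 fold change of -0.42 ± 0.15 (adjusted p = 0.0250) shrank to -0.27 without 9mTSCmKO replicate 3 (adjusted p = 0.128), and the call was also lost without 9mCON replicate 4 or 5 (adjusted p = 0.0758 to 0.131), without 9mTSCmKO replicates 1 and 3 together (-0.23, adjusted p = 0.262), in a fit of only the libraries compared (adjusted p = 0.186) and with limma on TPM (adjusted p = 0.135).

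Tsc22d3 stood at 435, 322, 375, 468 and 346 CPM in 9mCON and at 911, 512, 299, 556 and 509 CPM in 9mTSCmKO. In 9mTSCmKO, 4 mice lay above all CON mice and replicate 3 below them. On the log2 scale Tsc22d3 differed by 0.52 ± 0.21 (adjusted p = 0.0466). Without 9mTSCmKO replicate 1, the highest library, it was 0.28 (adjusted p = 0.284), and the call was also lost without any one of 9mTSCmKO replicates 2, 4 and 5 and 9mCON replicates 2, 3 and 5 (adjusted p of at least 0.0505), without 9mTSCmKO replicates 1 and 3 together (0.46, adjusted p = 0.0794), and under 5 of the 8 alternative settings (adjusted p = 0.0530 to 0.137).

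Pik3r1, which encodes the p85-alpha regulatory subunit of PI3-kinase, stood at 34.4, 22.0, 37.8, 37.0 and 51.8 CPM in 9mCON and at 81.6, 75.1, 33.0, 45.8 and 34.9 CPM in 9mTSCmKO. Replicates 1 and 2 of 9mTSCmKO lay far above the other 3, which were within the CON range. The log2 fold change of 0.56 ± 0.22 (adjusted p = 0.0429) was lost as a call without any one of 9mTSCmKO replicates 1 and 2 and 9mCON replicates 1 to 4, and was 0.38 (adjusted p = 0.191) without 9mTSCmKO replicate 1. Without 9mTSCmKO replicates 1 and 3 together it was 0.53 (adjusted p = 0.0827). It was also lost under 6 of the 8 alternative settings, the replicate block among them (adjusted p = 0.0518 to 0.158).

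Fkbp5 and Sgk1 did not pass the test at 9 months, with log2 fold changes of 0.67 ± 0.34 (adjusted p = 0.122) and -0.41 ± 0.22 (adjusted p = 0.140). Of all genes tested, 37.9% were called in this comparison (19.1% higher and 18.9% lower), beside 4 of 9 members, 2 in each direction. Members had a median log2 fold change of -0.08 and all genes one of -0.02. The muscle fiber marker sum was lower in each 9mTSCmKO mouse than in each 9mCON mouse, with 4 of 8 genes called lower. Of the markers of other cell types, 4 of 6 for fibroblasts, 4 of 7 for tendon and 2 of 5 for endothelium were called lower, with median log2 fold changes of -0.95, -1.47 and -0.40. Of the adipocyte markers 1 of 8 was called higher and 2 lower, with a median log2 fold change of -1.23. Their sum, mostly Car3 (2.10), was 1487 to 4134 CPM in 9mTSCmKO and 650 to 1454 CPM in 9mCON. Of the macrophage markers 1 of 6 was called higher, and of the erythroid markers 0 of 5 were called. The part of these markers in the member differences was not tested. In a bulk sample, fewer cells of a type and less RNA per cell cannot be told apart.

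**Figure D2:**
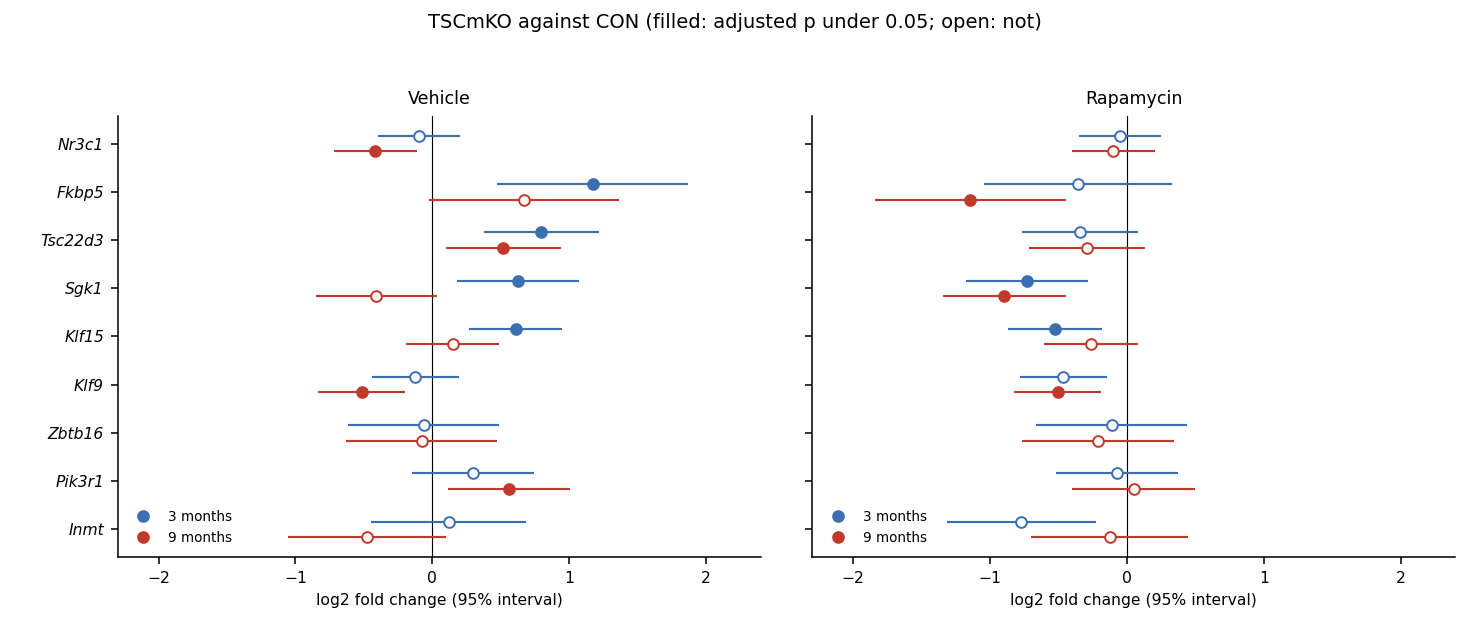
Log2 fold change of TSCmKO against CON for the 9 tested genes at 3 and 9 months, with vehicle and with rapamycin; points are edgeR estimates, bars their 95% intervals, and filled points have an adjusted p under 0.05. Fkbp5 and Sgk1 lie above 0 at 3 months with vehicle (1.17 and 0.62) and below 0 at 9 months with rapamycin (-1.14 and -0.89).

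The genotype effect on Sgk1 differed between the ages. Its difference on the log2 scale, 9 months minus 3 months, was -1.03 ± 0.31 (adjusted p = 0.0439, edgeR), and 1 of 9 members was called, beside 4.94% of all genes (3.01% positive and 1.93% negative). The call was lost without any one of 11 of the 20 libraries (9mTSCmKO replicates 1 and 3, 9mCON replicates 2 to 5, 3mTSCmKO replicates 2, 4 and 5 and 3mCON replicates 1 and 3), with values of -1.06 to -0.90 and adjusted p of 0.0550 to 0.0978, and under 4 of 8 alternative settings (adjusted p = 0.0584 to 0.108). Without 9mTSCmKO replicates 1 and 3 together the difference was -0.75 (adjusted p = 0.256).

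Rapamycin lowered Tsc22d3, Sgk1 and Klf15 in TSCmKO muscle at both ages, and Klf9 at 3 months. No member was called higher. The TSCmKO vehicle libraries also enter the comparisons with CON above and the tests of rapamycin by genotype below. A rise over CON and a fall with rapamycin are therefore not independent results. At 3 months Klf15 fell from 51.3, 64.8, 49.0, 75.4 and 81.4 CPM with vehicle to 28.5, 28.6, 27.1, 22.0 and 19.5 CPM with rapamycin. The groups did not overlap, and the log2 fold change was -1.36 ± 0.17 (adjusted p = 1.32e-07, edgeR).

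Sgk1 fell at 3 months from 236, 333, 253, 320 and 368 CPM to 130, 129, 173, 103 and 138 CPM. These groups were also apart, with a log2 fold change of -1.16 ± 0.22 (adjusted p = 0.000128). Tsc22d3 fell from 379, 596, 575, 566 and 743 CPM to 237, 310, 369, 238 and 287 CPM, and its lowest vehicle mouse lay just above its highest rapamycin mouse. The log2 fold change of Tsc22d3 was -0.99 ± 0.21 (adjusted p = 0.000473).

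Klf9 stood at 239, 241, 211, 234 and 257 CPM in 3mTSCmKO and at 196, 173, 180, 143 and 167 CPM in 3mTSCmKO+RM. The groups did not overlap, although the log2 fold change of -0.46 ± 0.16 was smaller than those of the other 3 genes (adjusted p = 0.0289). The Klf9 call was lost without any one of 3mTSCmKO replicates 1 and 5 and 3mTSCmKO+RM replicates 2, 4 and 5 (log2 fold change -0.46 to -0.40, adjusted p = 0.0502 to 0.0887), with upper-quartile scaling (adjusted p = 0.0588) and with limma on TPM (adjusted p = 0.149). Fkbp5 at -0.59 ± 0.34 (adjusted p = 0.220) and Inmt at 0.59 ± 0.27 (adjusted p = 0.117) did not pass. Across all genes tested, 23.6% were called (10.6% higher and 13.0% lower), beside 4 of 9 members, all lower. Over the members the median log2 fold change was -0.46, over all genes 0.01. Of the fiber markers 4 of 8 were called higher and 1 lower (median log2 fold change 0.30), and 2 of 6 macrophage, 1 of 6 fibroblast and 1 of 7 tendon markers were called higher. Their part was not tested.

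At 9 months Tsc22d3 ran from 911, 512, 299, 556 and 509 CPM in 9mTSCmKO to 207, 293, 238, 305 and 316 CPM in 9mTSCmKO+RM. Only the vehicle mouse of replicate 3, at 299 CPM, reached into the rapamycin range, and the log2 fold change was -1.04 ± 0.21 (adjusted p = 0.000212). Sgk1 ran from 116, 190, 104, 173 and 187 CPM to 96.9, 111, 86.6, 86.7 and 92 CPM, with a log2 fold change of -0.70 ± 0.22 (adjusted p = 0.0133). Its ranges touched between 104 and 111 CPM. Klf15 ran from 44.0, 63.9, 29.5, 52.5 and 41.3 CPM to 40.7, 28.9, 25.4, 29.6 and 29.4 CPM, with a log2 fold change of -0.59 ± 0.17 (adjusted p = 0.00712).

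The Klf15 ranges overlapped only through the vehicle mouse of replicate 3. The 3 calls at 9 months held without any single library and without 9mTSCmKO replicates 1 and 3 together, which gave log2 fold changes of -0.96 for Tsc22d3, -0.96 for Sgk1 and -0.78 for Klf15. Those of the same 3 genes at 3 months also held without any single library. Among the members that did not pass at 9 months were Fkbp5 (-0.61 ± 0.34, adjusted p = 0.172), Pik3r1 (-0.46, adjusted p = 0.103), Nr3c1 (0.30, adjusted p = 0.123) and Zbtb16 (0.47, adjusted p = 0.189). Zbtb16 encodes PLZF, a zinc finger repressor that is strongly induced by the hormone in many cells. The call rate over all genes was 32.6% (15.8% higher and 16.8% lower), beside 3 of 9 members, all lower. The median log2 fold change was -0.46 over the members and -0.04 over all genes. The muscle fiber sum was higher in each rapamycin mouse of this age (159414 to 198007 CPM) than in each vehicle mouse, with 4 of 8 genes called higher and 1 lower. Among the macrophage, endothelial and tendon markers 1 each was called lower (C1qa, Kdr and Thbs4). The part of these markers was not tested.

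**Figure D3:**
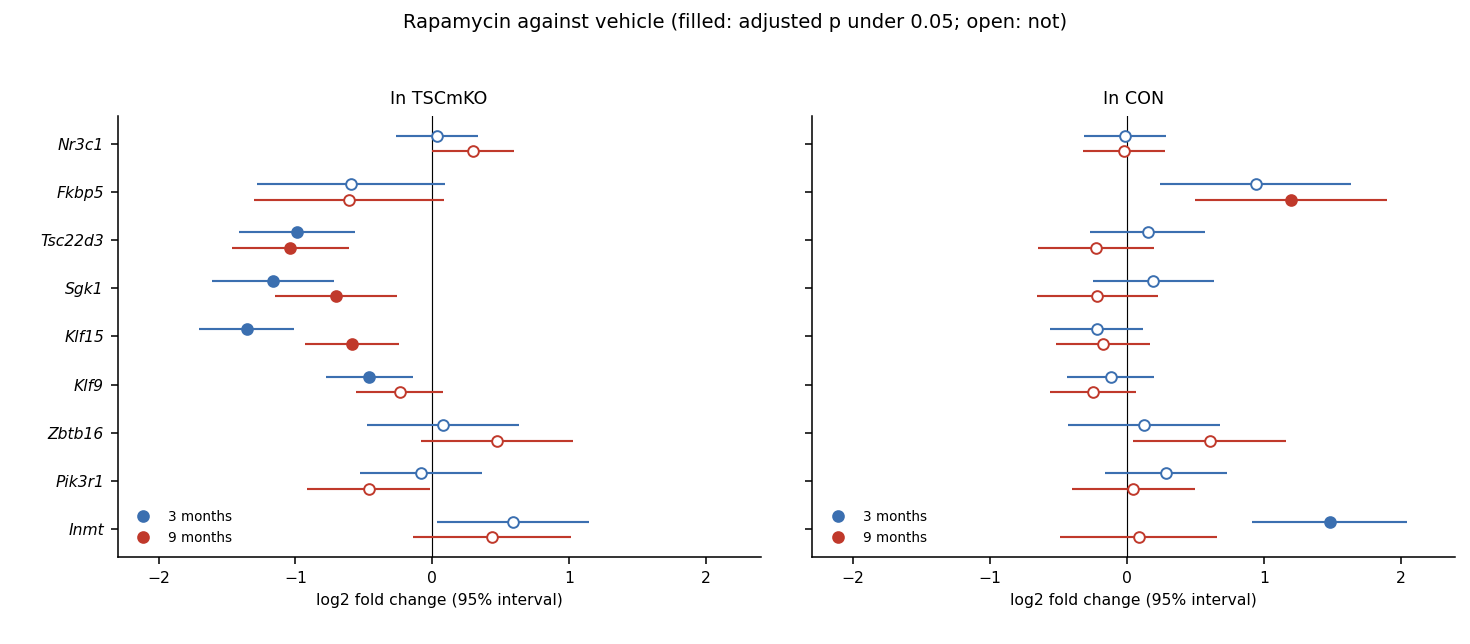
Log2 fold change of rapamycin against vehicle for the 9 tested genes in TSCmKO and in CON muscle at 3 and 9 months; points are edgeR estimates, bars their 95% intervals, and filled points have an adjusted p under 0.05. Tsc22d3, Sgk1 and Klf15 lie between -1.36 and -0.59 in TSCmKO at both ages, while Fkbp5 in 9mCON (1.20) and Inmt in 3mCON (1.48) are the filled points above 0.

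In CON muscle rapamycin changed 1 member at each age, upward. At 3 months this was Inmt, which encodes indolethylamine N-methyltransferase, an enzyme known from stromal cells. Inmt stood at 8.73, 8.92, 5.70, 4.34 and 3.46 CPM in 3mCON and at 15.8, 14.7, 17.5, 20.4 and 17.8 CPM in 3mCON+RM. The groups lay well apart, and the log2 fold change of 1.48 ± 0.28 (adjusted p = 0.00566, edgeR) was still called without any single library and under all 8 alternative settings. The fibroblast marker sum over 6 genes was 1105 to 2217 CPM in 3mCON and 795 to 1847 CPM in 3mCON+RM, with medians of 1433 and 1653 CPM, a median log2 fold change of 0.16 and 0 of the 6 genes called. Its part in the Inmt difference was not tested. For Fkbp5 the fitted difference here was 0.94 ± 0.34 on the log2 scale (adjusted p = 0.291). Of all genes tested, 0.679% were called (0.362% higher and 0.318% lower), beside 1 of 9 members. Members had a median log2 fold change of 0.15 and all genes one of -0.00.

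At 9 months rapamycin raised Fkbp5 in CON muscle. It stood at 16.5, 24.8, 30.4, 46.0 and 56.6 CPM in 9mCON and at 49.9, 41.3, 109, 107 and 95.7 CPM in 9mCON+RM. In 9mCON+RM, 3 mice lay far above all vehicle mice and 2 within their range. The log2 fold change was 1.20 ± 0.34 (adjusted p = 0.0189), and the call was lost without 9mCON replicate 1 (1.02, adjusted p = 0.0681), without 9mCON+RM replicate 4 (adjusted p = 0.0504) and in a fit of only the libraries compared (adjusted p = 0.0731).

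Tsc22d3, Sgk1 and Klf15 had log2 fold changes between -0.23 and -0.17 in 9mCON+RM against 9mCON, and Zbtb16 had 0.60 ± 0.27 (adjusted p = 0.161). Across all genes tested, 11.8% were called (5.03% higher and 6.82% lower), beside 1 of 9 members. The median log2 fold change was -0.02 over both the members and all genes. In this comparison the fibroblast sum was 839 to 1577 CPM with vehicle and 129 to 601 CPM with rapamycin, with all 6 of its genes called lower, and 5 of 6 macrophage and 6 of 7 tendon markers were called lower too. The muscle fiber sum was higher in each 9mCON+RM mouse (209201 to 219476 CPM) than in each 9mCON mouse. Their part in the Fkbp5 difference was not tested.

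The rapamycin effect was set against the genotype in 1 term per age, (TSCmKO+RM - TSCmKO) - (CON+RM - CON). At 3 months Klf15 (-1.14 ± 0.24, adjusted p = 0.00374), Sgk1 (-1.36 ± 0.31, adjusted p = 0.00835) and Tsc22d3 (-1.14 ± 0.30, adjusted p = 0.0203) fell more in TSCmKO than in CON on the log2 scale, as tested by edgeR. This was 3 of 9 members, all negative, beside 3.45% of all genes (1.36% positive and 2.09% negative). In CON the same genes showed little difference at 3 months: Klf15, for example, differed by -0.22 on the log2 scale (adjusted p = 0.812). The calls of Klf15 and Sgk1 held without any single library, while that of Tsc22d3 was lost without 3mCON replicate 3 (-1.04, adjusted p = 0.0510) and with limma on TPM (adjusted p = 0.0737). The difference for Fkbp5 was -1.53 ± 0.48 (adjusted p = 0.0748) and that for Inmt -0.89 (adjusted p = 0.249).

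At 9 months Fkbp5 was the member whose rapamycin effect differed by genotype, by -1.81 ± 0.49 on the log2 scale (adjusted p = 0.0238, edgeR), beside 4.87% of all genes (2.56% positive and 2.31% negative). It was higher with rapamycin in CON and not called in TSCmKO. The call was lost without 9mTSCmKO replicate 2 (-1.52, adjusted p = 0.0528) and under 4 of 8 alternative settings (adjusted p = 0.0522 to 0.0699), and was kept without 9mTSCmKO replicates 1 and 3 (-2.0, adjusted p = 0.0165). Tsc22d3 (-0.81, adjusted p = 0.10), Sgk1 (-0.49, adjusted p = 0.392) and Klf15 (-0.41, adjusted p = 0.333) did not pass at this age. The rapamycin effect in CON was also compared between ages, where 0 of 9 members were called by edgeR and 1 had an unadjusted p under 0.05, beside 0.938% of all genes (0.0591% positive and 0.879% negative). That member was Inmt, at -1.40 ± 0.40 (adjusted p = 0.0736), and DESeq2 called 1 member.

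Under rapamycin, every member called between the genotypes was lower in TSCmKO than in CON muscle. At 9 months Fkbp5, Sgk1 and Klf9 were lower in TSCmKO+RM than in CON+RM. Sgk1 stood at 147, 188, 168, 205 and 173 CPM in 9mCON+RM and at 96.9, 111, 86.6, 86.7 and 92 CPM in 9mTSCmKO+RM. The groups did not overlap, and the log2 fold change was -0.89 ± 0.22 (adjusted p = 0.00274, edgeR). Fkbp5 ran from 41.3 to 109 CPM in 9mCON+RM and from 28.2 to 42.1 CPM in 9mTSCmKO+RM, with overlap at 1 mouse of each group and a log2 fold change of -1.14 ± 0.34 (adjusted p = 0.0148). Klf9 had -0.51 ± 0.16 (adjusted p = 0.0179), which was lost without 9mCON+RM replicate 4 (-0.43, adjusted p = 0.0657). With limma on TPM neither Fkbp5 (adjusted p = 0.0661) nor Klf9 (-0.36, adjusted p = 0.221) was called. The call rate over all genes was 20.6% (11.3% higher and 9.33% lower), beside 3 of 9 members, all lower. Over the members the median log2 fold change was -0.26, over all genes -0.01. The muscle fiber sum was again lower in each TSCmKO mouse (159414 to 198007 CPM) than in each CON mouse (209201 to 219476 CPM), with 3 of 8 fiber and 2 of 5 endothelial markers called lower. The adipocyte sum was higher in each TSCmKO mouse (1962 to 2747 CPM) than in each CON mouse (882 to 1498 CPM), but it was mostly Car3 (1.34), the 1 of 8 adipocyte markers called, and the median log2 fold change over the list was -0.25. Of the macrophage markers 1 of 6 was called higher. The part of these markers was not tested.

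At 3 months under rapamycin Sgk1 and Klf15 were lower in TSCmKO than in CON muscle. Klf15 stood at 36.8, 52.5, 30, 29.3 and 32.5 CPM in 3mCON+RM and at 28.5, 28.6, 27.1, 22.0 and 19.5 CPM in 3mTSCmKO+RM. The ranges were separated by less than 1 CPM, with a log2 fold change of -0.53 ± 0.17 (adjusted p = 0.0403). The log2 fold change of Sgk1 was -0.73 ± 0.22 (adjusted p = 0.0259), and its ranges of 115 to 347 CPM and 103 to 173 CPM overlapped. Both calls were lost without 3mCON+RM replicate 1, without replicate 2, the highest mouse of that group for both genes (Sgk1 -0.52, adjusted p = 0.151; Klf15 -0.35, adjusted p = 0.227), and without 3mTSCmKO+RM replicate 4. That of Sgk1 was also lost without 3mTSCmKO+RM replicate 1 or 2, and that of Klf15 without replicate 3 or 5 and with a replicate block (adjusted p = 0.0522). Neither was called without the filter on low counts or with limma on TPM, and Sgk1 was not called in a fit of only the libraries compared (adjusted p = 0.0532 to 0.0940).

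Klf9 (-0.47 ± 0.16, adjusted p = 0.0518) and Inmt (-0.77 ± 0.27, adjusted p = 0.0622) did not pass at 3 months under rapamycin, although the 5 mice of each group did not overlap for either gene. The share of all genes whose ranges lay apart was not computed. DESeq2 called 4 members in this comparison. Of all genes tested, 10% were called (5.67% higher and 4.36% lower), beside 2 of 9 members, both lower. The median log2 fold change was -0.36 over the members and -0.01 over all genes. Here too the adipocyte sums lay apart, at 1568 to 2295 CPM in 3mTSCmKO+RM and 674 to 1075 CPM in 3mCON+RM, again mostly through Car3 (1.49), while the median log2 fold change over the 8 markers was -0.13. Called higher were Car3 and 1 of 7 tendon markers. Their part was not tested.

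Between 3 and 9 months no member was called in CON muscle by edgeR, beside 1.02% of all genes (0.679% higher and 0.340% lower). Pik3r1 was the 1 member with an unadjusted p under 0.05 (log2 fold change -0.46, adjusted p = 0.271), and Zbtb16 had -0.45 (adjusted p = 0.399). DESeq2 and the other 7 alternative settings called 0 members in this comparison as well. In TSCmKO muscle Nr3c1, Sgk1 and Klf15 were lower at 9 than at 3 months, beside 37.4% of all genes (19.1% higher and 18.3% lower). Sgk1 ran from 236 to 368 CPM in 3mTSCmKO and from 104 to 190 CPM in 9mTSCmKO, so that the groups did not overlap, with a log2 fold change of -0.97 ± 0.22 (adjusted p = 0.000787). Nr3c1 had -0.45 ± 0.15 (adjusted p = 0.0162) and Klf15 -0.48 ± 0.17 (adjusted p = 0.0227). Members had a median log2 fold change of -0.46 and all genes one of 0.00. In the same comparison 6 of 8 adipocyte, 5 of 7 tendon, 4 of 6 fibroblast, 4 of 5 erythroid, 3 of 5 endothelial and 3 of 8 fiber markers were called lower, and their part was not tested.

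These age differences cannot be told apart from library preparation. With insert size as a term, Sgk1 had -0.75 (adjusted p = 0.0989), Nr3c1 -0.41 (adjusted p = 0.186) and Klf15 -0.13 (adjusted p = 0.742). Nr3c1 was not called without 9mTSCmKO replicate 3 (-0.30, adjusted p = 0.101), nor Klf15 without any one of 9mTSCmKO replicates 1 and 3 and 3mTSCmKO replicates 4 and 5 (-0.44 to -0.34, adjusted p = 0.0563 to 0.117). In a fit of only the libraries compared neither was called (adjusted p = 0.0734 for Nr3c1 and 0.0961 for Klf15). Without 9mTSCmKO replicates 1 and 3 together, Sgk1 was still called (-0.69, adjusted p = 0.0432), whereas Nr3c1 (-0.26) and Klf15 (-0.27) were not.

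Cebpd, which encodes the stress-responsive factor C/EBP-delta, could not be followed as an mRNA. The gene has a coding transcript of 3746 nt with 1 exon and a noncoding processed transcript of 430 nt with 2 exons, and the deposited counts and TPM imply a length of 430 nt, that of the noncoding transcript. In addition, 14.2% of the 31-base words of Cebpd also occur in other genes, mainly Spidr. Counts in the 5 libraries were 4, 13, 4, 30 and 15 in 3mTSCmKO and 30, 8, 3, 5 and 6 in 9mTSCmKO, against 0 to 5 per library in the other 6 groups. In 3mTSCmKO all 5 mice lay above all 3mCON mice (0.564 ± 0.338 against 0.0513 ± 0.0469 CPM, SD, n = 5). Without the filter on low counts, the 3mTSCmKO level differed by edgeR from that of 3mCON (adjusted p = 0.00278) and of 3mTSCmKO+RM (adjusted p = 0.00635), and the 9mTSCmKO level from that of 9mCON (adjusted p = 0.0179) and of 9mTSCmKO+RM (adjusted p = 0.00783). Both 9-month differences rested on 9mTSCmKO replicate 1, without which the adjusted p was 0.180 and 0.0955, and without replicates 1 and 3 together it was 0.159 and 0.0876, while replicate 3 lay within the 9mCON range. Those at 3 months held without any single 3mTSCmKO library. At levels of a few counts no fold is given.

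Levels of the members were also related among mice of the same group. The deviation of each library from its group mean was taken on the log2 CPM scale, and Pearson's r was computed over the 40 libraries for the 36 pairs of tested members. In 34 pairs r was positive, the median r was 0.40, and 15 pairs, all positive, had an adjusted p under 0.05 in a permutation test within groups. By Spearman's rho 10 pairs did. Replicate 3 of 9mTSCmKO was the lowest of its group for Nr3c1, Fkbp5, Tsc22d3, Sgk1, Zbtb16, Klf15, Klf9 and Pik3r1. Its deviations from the group mean therefore had the same sign in all pairs of these members. The number of pairs that pass without this library was not computed. Over all pairs of the 13543 tested genes the median r was -0.003 and 49.6% of the values were positive, and the share of those pairs that would pass the test was not computed. All genes of a library share its depth and composition, and the part of these in the values of r was not tested.

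Klf9 was in the 2 closest pairs. With Zbtb16 its r was 0.72 (permutation adjusted p = 0.00234) and rho 0.60 (permutation adjusted p = 0.00418). Without the 2 libraries most extreme for Zbtb16, r was 0.67. With Tsc22d3 it was 0.72 (permutation adjusted p = 0.00072) with a rho of 0.58 (permutation adjusted p = 0.00252), and 0.58 without the 2 libraries most extreme for Tsc22d3. Zbtb16 and Pik3r1 reached 0.69, and Fkbp5 and Zbtb16 0.67. For Nr3c1 with Klf9, r was 0.63 (permutation adjusted p = 0.0282), and 0.33 without the 2 libraries most extreme for Nr3c1. The rho of this pair was 0.35 (permutation adjusted p = 0.132). Sgk1 and Pik3r1 had an r of 0.04 and Sgk1 and Inmt of -0.10.

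Each age was also taken alone, with 9mTSCmKO replicate 3 among the 20 libraries of 9 months. In the 20 libraries of 3 months 3 of 36 pairs passed the test, and in the 20 of 9 months 13. Tsc22d3 and Sgk1 had an r of 0.81 at 3 months (permutation adjusted p = 0.00216) and 0.07 at 9 months (permutation adjusted p = 0.884), while Zbtb16 and Pik3r1 had 0.15 and 0.90 (permutation adjusted p = 0.715 and 0.00151). The difference between the ages itself was not tested. None of the 72 relations of members with the sums of 7 marker lists and with insert size passed the same test, the lowest adjusted p being 0.0706, for Inmt with the fibroblast sum (r = 0.59) and Zbtb16 with the endothelial sum (r = 0.51).

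**Figure D4:**
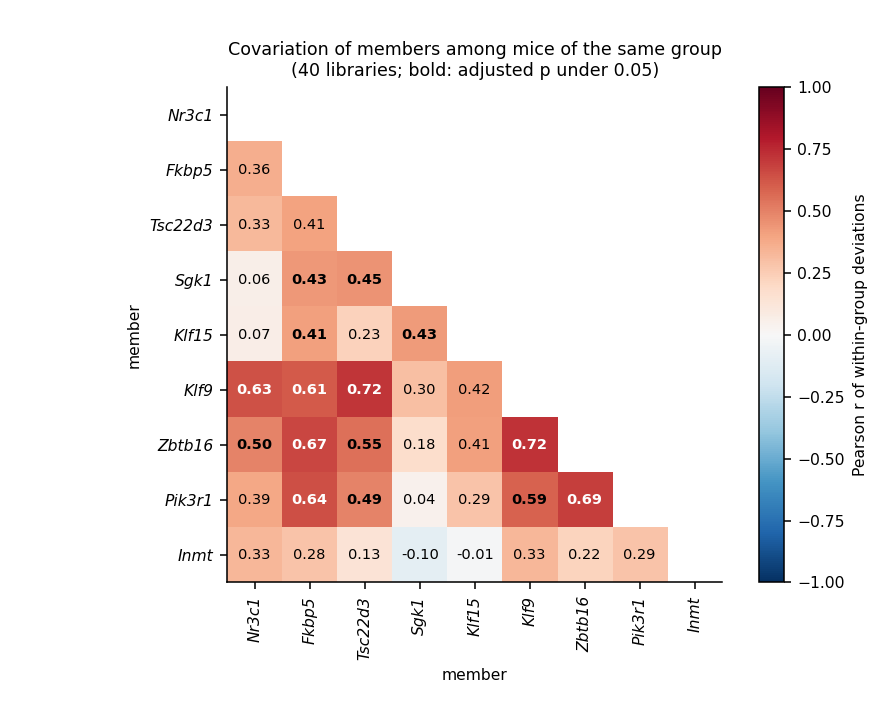
Pearson's r of the deviations from the group mean for each pair of the 9 tested genes over 40 libraries, colored from -1 (blue) to 1 (red), with bold figures where the adjusted permutation p was under 0.05. Klf9, Zbtb16, Fkbp5 and Pik3r1 form a block with r of 0.59 to 0.72, while the row of Inmt holds values of -0.10 to 0.33.

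Other genes of the pathway were described by lists. Of 29 other genes known to respond to glucocorticoids in muscle or elsewhere, all of which passed the filter, 11 were higher and 0 lower in 3mTSCmKO than in 3mCON, with a median log2 fold change of 0.63. At 9 months 11 were higher and 3 lower, with a median of 0.22. Of all genes 11.4% were higher at 3 and 19.1% at 9 months. The largest rise at 9 months was that of Mt2, a metallothionein, at 3.38 ± 0.59 (adjusted p = 2.59e-05, edgeR), and the largest fall that of Irs2, an insulin receptor substrate, at -1.28 ± 0.19 (adjusted p = 1.27e-06).

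Rapamycin lowered 13 of these 29 genes in 3mTSCmKO and raised 0, and it lowered 9 and raised 1 in 9mTSCmKO, with medians of -0.52 and -0.34, beside 13.0% and 16.8% of all genes lowered. Ddit4, which encodes REDD1, an inhibitor of mTORC1, fell the most at both ages, with log2 fold changes of -3.25 ± 0.54 (adjusted p = 2.79e-05) at 3 months and -2.38 ± 0.53 (adjusted p = 0.000776) at 9 months, and Irs2 rose at 9 months (0.70 ± 0.19, adjusted p = 0.00416). In CON muscle 0 of 29 were called at 3 months, and 2 were higher and 2 lower at 9 months, near the 0.679% and 11.8% of all genes called. At 9 months Foxo1 (1.06 ± 0.30, adjusted p = 0.0185) and Errfi1 (-0.94 ± 0.28, adjusted p = 0.0234) moved the most. Errfi1 in 9mCON stood at 42.2 ± 30.9 CPM (SD, n = 5) with replicate 2 at 97 CPM, and without that library its log2 fold change was -0.38 (adjusted p = 0.297). The Foxo1 call was also lost without it (0.93, adjusted p = 0.0516) and without 9mCON+RM replicate 3 or 4, and that of Errfi1 without 9mCON+RM replicate 1, 4 or 5. In the test of rapamycin by genotype at 3 months 8 of 29 were called, all negative, beside 2.09% of all genes. At 9 months 1 was, positive, beside 2.56% of all genes. Genes past the threshold in 3mTSCmKO, named here after their values were seen, included the ubiquitin ligases Trim63 and Fbxo32 and glutamine synthetase, Glul, each of them higher than in 3mCON and lower again with rapamycin. These comparisons share the 5 3mTSCmKO libraries. Without 3mTSCmKO replicate 4, or without 3mTSCmKO+RM replicate 4, the number lowered at 3 months was 8, and without 9mTSCmKO replicates 1 and 3 the number called at 9 months was 6 rather than 10, with Irs2 no longer called (0.53, adjusted p = 0.0753).

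**Figure D5:**
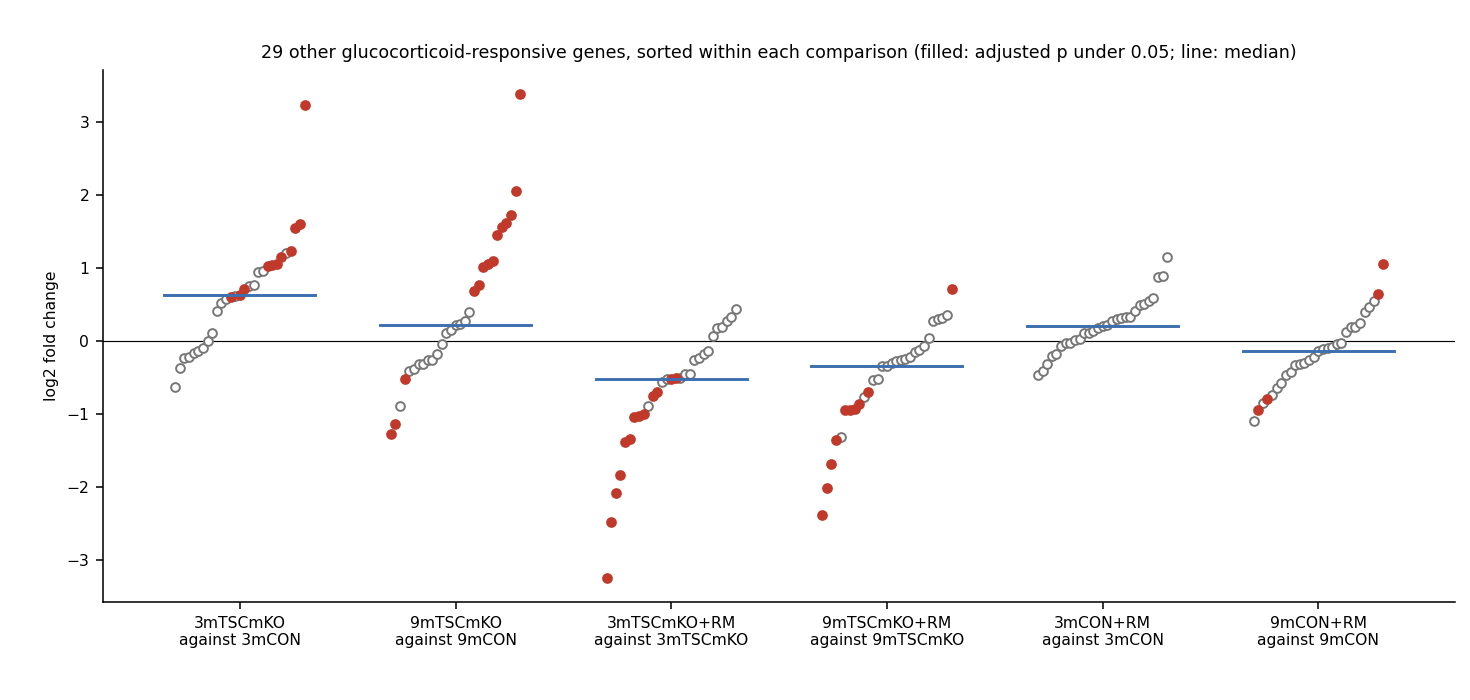
Log2 fold changes of the 29 other glucocorticoid-responsive genes, sorted within each of 6 comparisons; filled points have an adjusted p under 0.05 by edgeR, and the line marks the median. The median lies at 0.63 and 0.22 for TSCmKO against CON at 3 and 9 months and at -0.52 and -0.34 for rapamycin in TSCmKO.

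The receptor machinery was followed by 15 genes, Nr3c1 and Fkbp5 among them. They hold the Hsp90 chaperones, co-chaperones, steroid-activating enzymes and coregulators. In TSCmKO muscle 1 was higher and 2 lower at 3 months, and 1 was higher and 5 lower at 9 months, where Hsp90aa1 (0.76, adjusted p = 0.00635) and the coactivator gene Ncoa1 (-0.67, adjusted p = 0.00045) moved the most. These shares, 3 and 6 of 15, lie near the 19.8% and 37.9% of all genes called. The member Fkbp5 was the gene called higher at 3 months. Rapamycin raised 5 and lowered 1 in 3mTSCmKO, raised 6 and lowered 1 in 9mTSCmKO, and raised 5 and lowered 1 in 9mCON, but changed 0 in 3mCON. Of all genes 10.6%, 15.8% and 5.03% rose in the first 3 of these comparisons. Hsp90ab1, the constitutive cytosolic Hsp90, had the largest called rise in both TSCmKO comparisons, at 0.76 and 0.78 on the log2 scale, and in 9mCON (0.84) the largest after that of Fkbp5. The largest fall was that of Hsd11b1, which regenerates active hormone inside cells, at 9 months (-1.01 in TSCmKO and -1.14 in CON), and that of H6pd, its partner enzyme, at 3 months (-0.46). In the CON comparison 6 of 6 fibroblast, 6 of 7 tendon and 5 of 6 macrophage markers were called lower as well, and their part in the fall of Hsd11b1 was not tested. Leaving out single libraries of 3 months gave 3 to 5 calls in either direction for rapamycin in 3mTSCmKO rather than 6, and the lowest was without 3mTSCmKO replicate 4. Without 9mTSCmKO replicates 1 and 3 neither Hsp90aa1 (0.53, adjusted p = 0.103) nor the fall of Hsd11b1 in 9mTSCmKO (-0.68, adjusted p = 0.0659) was called.

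Of 8 genes of amino acid breakdown that Klf15 is known to drive, rapamycin lowered 5 and raised 1 in 3mTSCmKO and lowered 5 and raised 0 in 9mTSCmKO. The largest falls were those of Bcat2, the mitochondrial branched-chain aminotransferase, at 3 months (-1.79 ± 0.17, adjusted p = 2.9e-10, edgeR) and of Got1, an aspartate aminotransferase, at 9 months (-1.21 ± 0.13, adjusted p = 8.49e-09), and Bckdha rose at 3 months (0.41 ± 0.12, adjusted p = 0.0123), although not when 3mTSCmKO+RM replicate 1 or 2 was left out. Of all genes 13.0% were lowered at 3 and 16.8% at 9 months. In 9mCON, 2 were lower, Bcat2 the most (-0.66), beside 6.82% of all genes, and in 3mCON 0 were called. With vehicle, 1 was higher and 2 lower in TSCmKO at each age, among them Got1 (0.45) and Aldh4a1 (-0.64) at 9 months, where 37.9% of all genes were called (19.8% at 3 months). Over the list the median log2 fold change was 0.08 in 3mTSCmKO and 0.18 in 9mTSCmKO with vehicle, and -0.56 and -0.70 for rapamycin in TSCmKO at 3 and 9 months.

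Of 16 core clock genes, 1 was higher and 8 lower in 9mTSCmKO than in 9mCON, the extremes being Cry2 (0.74) and Hlf (-2.0), and 1 was higher and 1 lower at 3 months. Of all genes 19.1% were higher and 18.9% lower at 9 months, and 11.4% and 8.32% at 3 months. Rapamycin raised 3 in 9mTSCmKO, Per3 the most (1.27), and raised 1 and lowered 3 in 3mTSCmKO, with Per3 (0.89) and Per1 (-1.03) at the ends, beside 15.8% of all genes raised in the former and 10.6% raised and 13.0% lowered in the latter. The Per1 call was lost without 3mTSCmKO replicate 5 or any one of 3mTSCmKO+RM replicates 1, 4 and 5 (adjusted p = 0.0542 to 0.0808). In 9mCON it lowered Bhlhe41 alone of the 16 (-0.68), near the 6.82% of all genes lowered, and 0 were called in 3mCON, where 0.679% of all genes were. The time of dissection is not given, and its part in the levels of the members was not tested.

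Of 10 immediate early genes listed, 7 were tested, and 3 were not found by name among the 22844 genes with values. Among the 7, 2 were lower in 9mTSCmKO and 5 in 9mCON+RM, both against 9mCON, beside 18.9% and 6.82% of all genes, and 0 were called in the other 3 rapamycin comparisons. Fosb had the largest fall in both (-2.59 and -4.88), but its 9mCON level of 8.17 ± 14.6 CPM (SD, n = 5) came mostly from replicate 2, at 34.3 CPM. Without that library the log2 fold changes of Fosb were -0.28 (adjusted p = 0.682) and -2.57 (adjusted p = 0.00359), 1 gene was lower and 2 were higher in 9mTSCmKO, and 2 rather than 5 were lower in 9mCON+RM.

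Family relatives of the members were mixed. Of 20 listed, 17 were tested, Sgk2 did not pass the filter and 2 were not found by name among the genes with values. Of the 17, 4 were higher and 3 lower in 9mTSCmKO than in 9mCON (extremes Fkbp1b, 1.9, and Klf4, -1.09), which is near the 37.9% of all genes called. Rapamycin raised 4 and lowered 4 in 9mTSCmKO (Klf10, 0.93, and Fkbp1b, -1.05), raised 3 and lowered 4 in 3mTSCmKO (Klf10, 2.11, and Cebpg, -1.15), raised 0 and lowered 3 in 9mCON (Klf2, -1.28) and raised 0 and lowered 1 in 3mCON (Cebpg, -0.52). Of all genes 32.6%, 23.6%, 11.8% and 0.679% were called in these 4 comparisons. Klf2 in 9mCON stood at 39.5 ± 41 CPM (SD, n = 5) with replicate 2 at 113 CPM, and without that library its log2 fold change was -0.38 (adjusted p = 0.469) and 1 relative rather than 3 was lowered. The Klf2 call was also lost without 9mCON+RM replicate 1, 4 or 5, that of Fkbp1b under rapamycin without replicate 3 of either group, and that of Cebpg in 3mCON without any one of 9 of the 10 libraries. Klf4 was -0.64 without 9mCON replicate 2.

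The genes whose levels were most like those of a member were found by Pearson's r of log2 CPM over the 40 libraries, among 9630 genes with a mean of at least 5 CPM. These values carry the group differences as well as the spread among mice, and have no test. Tsc22d3 was most like Ddit4 (r = 0.81) and Nacc2 (0.79), and Sgk1 most like Arrdc2 (0.82) and Homer1 (0.81). Ddit4 and Arrdc2 are on the list of other glucocorticoid-responsive genes, as is Foxo1, which with Serinc3 was most like Fkbp5 (0.71 and 0.73). Klf15 was most like Kmt5a (0.83) and Lynx1 (0.83), Klf9 like Wbp1l (0.81) and Pitpnc1 (0.79), and Pik3r1 like Secisbp2l (0.80) and Hipk1 (0.77). Nr3c1 was most like Phc3 and Kat6a (both 0.89), Zbtb16 like Chd7 (0.87) and Kalrn (0.84), and Inmt like C3 and Scara5 (both 0.73).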

How the data were processed

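RNA of whole EDL muscle was measured in 40 libraries. The authors isolated poly(A) RNA, sequenced directional libraries of single reads, trimmed adapters with Cutadapt 1.9.1 and assigned reads with kallisto 0.43.1 to Ensembl transcripts of GRCm38, sharing a read equally among all transcripts it matched. Versions come from the submitters' processing notes. The authors deposited estimated counts and TPM per gene, and the estimated counts, with totals of 8883870 to 35224669 per library, were rounded to whole numbers. Sample labels gave the groups, and no value column was left unmapped (0). The members and all gene lists were chosen with earlier results of these data known.

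Genes with at least 1 CPM in at least 5 libraries (13543) were fitted with edgeR 4.0.16 (R 4.3.3) as 8 group means over all 40 libraries, with TMM scaling and robust quasi-likelihood F-tests. There were 10 comparisons of groups and 4 interactions. Standard errors (±, where no SD is named) are the absolute log2 fold change divided by the square root of its F statistic. The intervals in the figures were built from them. P-values are two-sided and adjusted by Benjamini-Hochberg over all genes tested, at a threshold of 0.05. They set each difference against the spread among mice within groups, estimated over all 8 groups together rather than from the groups compared alone. The alternatives were RLE and upper-quartile scaling, no filter, a replicate block, insert size as a term, a fit of only the groups compared, DESeq2 1.42.0, limma 3.58.1 on log2(TPM + 1), and each library left out in turn. Leaving out 9mTSCmKO replicates 1 and 3 together, relations of members with marker sums, correlations over all pairs of tested genes, the alternatives for single named genes of the lists, and fits of Cebpd with TSCmKO libraries left out were added after the data were seen. Covariation within groups was tested with 100000 permutations of libraries within groups.

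Named genes were the 10 members, Tsc1, the gene with the largest rise and fall past the threshold in each of 6 lists (receptor machinery, other responsive genes, amino acid breakdown, family relatives, clock and immediate early genes) in the genotype comparison at 9 months and the 4 rapamycin comparisons, and 2 genes most like each tested member. Trim63, Fbxo32, Glul, Sgk2 and the markers Acta1, Ckm, Car3, C1qa, Kdr and Thbs4 fall outside this rule and were named after their values were seen. Tissue was checked with 7 lists of markers, for muscle fibers, adipocytes, fibroblasts, tendon, endothelium, macrophages and erythroid cells. The edgeR, DESeq2 and limma fits were tested on simulated data for the genotype comparison at 9 months, and the permutation test on simulated pairs of genes. The other comparisons and alternatives were not simulated.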

Additional observations from a re-analysis of the deposited data

Results flagged for a closer look

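Single libraries stood apart from the other 4 of their group in 7 of the 72 groups of member values, judged by the gap to the nearest library as a share of the range. Chance gives about 1 in 20 such groups. The levels were 63.9 CPM for Nr3c1 in 9mTSCmKO replicate 3 (others 110 to 122), 239 CPM for Tsc22d3 in 3mCON+RM replicate 3 (379 to 409), 54.4 CPM for Klf15 in 3mCON replicate 3 (37.7 to 40.2) and 40.7 CPM for Klf15 in 9mTSCmKO+RM replicate 1 (25.4 to 29.6). They were 107 CPM for Pik3r1 in 3mTSCmKO replicate 4 (43.8 to 56.0), 27.9 CPM for Pik3r1 in 9mCON+RM replicate 1 (39.0 to 41.9) and 8.96 CPM for Inmt in 9mTSCmKO+RM replicate 5 (5.66 to 6.11).

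Of 36 interaction tests on members, 5 passed the threshold by edgeR. Sgk1 differed in its genotype effect between ages (-1.03 on the log2 scale), Fkbp5 in its rapamycin effect between genotypes at 9 months (-1.81), and Tsc22d3 (-1.14), Sgk1 (-1.36) and Klf15 (-1.14) in their rapamycin effect between genotypes at 3 months.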

How the results depend on the processing

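Of 30 calls of a member in a comparison, 13 held under all 8 alternative settings, 15 without any single library and 12 under both. Calls lost were 0 under RLE scaling, 0 with DESeq2, 3 with upper-quartile scaling, 7 without the filter on low counts, 8 with insert size as a term, 11 in a fit of only the groups compared and 12 with limma on log2(TPM + 1). Of 408 values of single members under these settings, 357 kept direction and side of the threshold, 43 lost and 8 gained a call, and 0 reversed. The number of members called for 9mTSCmKO against 9mCON was 4, and 2 with upper-quartile scaling, without the filter or with insert size, 0 in a fit of only these groups or with limma, and 1 without 9mTSCmKO replicates 1 and 3. For 9mTSCmKO+RM against 9mCON+RM it was 3, and 1 with limma. For 3mTSCmKO+RM against 3mCON+RM it was 2, and 0 without the filter or with limma and 4 with DESeq2. For 9mCON+RM against 9mCON it was 1, and 0 in a fit of only these groups. For 9mTSCmKO against 3mTSCmKO it was 3, and 0 with insert size, and 1 in a fit of only these groups or without 9mTSCmKO replicates 1 and 3. The 1 call of genotype by age and the 1 of rapamycin by genotype at 9 months went to 0 without the filter, with insert size, in the fit of only the groups compared and with limma, and the former also to 0 without 9mTSCmKO replicates 1 and 3. For rapamycin by age in CON it was 0, and 1 with DESeq2. The 15 related pairs were 3 at 3 months alone. Calls among the other responsive genes for rapamycin in 9mTSCmKO went from 10 to 6, and among the receptor machinery from 7 to 4, without 9mTSCmKO replicates 1 and 3. Those of the machinery in 3mTSCmKO went from 6 to 3 without the filter or with limma. The cause of these changes was not tested.

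With each library left out, the members called ran from 2 to 4 for 9mTSCmKO and for 3mTSCmKO against CON, from 2 to 3 and from 0 to 3 for the same comparisons under rapamycin at 9 and 3 months, from 3 to 5 and 3 to 4 for rapamycin in TSCmKO at 9 and 3 months, from 0 to 1 for rapamycin in 9mCON, from 1 to 4 for age in TSCmKO, from 0 to 1 for genotype by age, from 0 to 2 and 2 to 4 for rapamycin by genotype at 9 and 3 months, and from 0 to 1 for rapamycin by age in CON. Calls among the other responsive genes ran from 8 to 13 and among the machinery from 3 to 5 for rapamycin in 3mTSCmKO.

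Replicate numbers are shared between groups, but nothing ties mice of a number together. Deviations of libraries of the same number correlated from -0.36 to 0.41 over 50 pairs, with 13 over 0.1, and in 13 of the 50 a library of the first group correlated best with its own number in the second. With a replicate block 2 calls were lost: the members called were 3 rather than 4 for 9mTSCmKO against 9mCON and 1 rather than 2 for 3mTSCmKO+RM against 3mCON+RM.

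The depth of 8883870 to 35224669 counts leaves Inmt with 41 to 715 counts per library and Cebpd with 0 to 30. Only Cebpd failed the filter on low counts, and the part of counting error in the spread of the other members was not tested.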
